A study of Chlamydomonas reinhardtii with 16 samples.

Results

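The LHCA genes encode the light-harvesting proteins of photosystem I (LHCI), and their transcripts were followed in 16 RNA-seq libraries of the green alga Chlamydomonas reinhardtii. Members were taken by identifier, LHCA1 to LHCA9. The table of 17301 genes held 7 of the 9, and LHCA3 and LHCA6 were not analysed here. The 7 were LHCA1 (Cre06.g283050), LHCA2 (Cre12.g508750), LHCA4 (Cre10.g452050), LHCA5 (Cre10.g425900), LHCA7 (Cre16.g687900), LHCA8 (Cre06.g272650) and LHCA9 (Cre07.g344950). All 7 passed the filter on low values, and the pairing of identifiers with names comes from the choice of members, not from the deposited table.

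The 8 groups of 2 libraries combine strain, biliverdin IXα (BV) and light. The mutant hmox1, defective in a heme oxygenase, was set against the wild type 4A+. Cultures grew in darkness at 22 C in acetate (TAP) medium that contained 0.5% methanol in every group, with 0.1 mM BV or with none. RNA came from cells lit for 30 min at a photon flux of 150 µmol m-2 s-1 (white light), or from cells harvested in the dark before that light. The groups are therefore hmox1 with BV after light, hmox1 with BV in the dark, hmox1 without BV after light, hmox1 without BV in the dark, and the same 4 conditions of the wild type. All cultures had acetate as a carbon source, and hmox1 is 1 mutant strain with no complemented line among these groups. Since nothing in the labels ties the 2 libraries of a group to different cultures, the p-values reflect only the spread between libraries, and that spread may be technical. The heme oxygenase transcript itself was not analysed here, because no table used here pairs an identifier with that gene.

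LHCI proteins bind chlorophylls a and b and pass absorbed light energy to the core of photosystem I. In structures of the Chlamydomonas complex, most of them sit in an inner and an outer row on one side of the core. LHCA1, LHCA8, LHCA7 and LHCA3 form the inner row, while a further copy of LHCA1 with LHCA4, LHCA6 and LHCA5 forms the outer row. LHCA2 and LHCA9 sit together on another side of the core. Heme oxygenase converts heme to biliverdin, the precursor of plastid bilins, and bilins are known in this alga as signals that act on nuclear genes during greening.

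Levels are given as RPKM, reads scaled to the length of the gene and to the reads of the library, so they can be compared between genes. The LHCA genes were among the most abundant transcripts in all 16 libraries. Their RPKM ran between 358.7 and 1727, and each library placed them between rank 106 and rank 293 of all genes. Together they took 0.647% to 1.07% of the reads of a library. Libraries held 10213385 to 43414139 reads in genes, and 5083 to 62110 reads lay behind a single member's value, so counting error was small. The coefficient of variation between the 2 libraries of a group had a median of 1.62%, a lowest value of 0.0471% and a highest value of 10.6%, the last for LHCA5 in wild type with BV after light. In these bulk samples, a lower share of a transcript per cell and fewer cells that carry it cannot be told apart.

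The inner row is described first. LHCA1, which has a place in both rows, had 1472 and 1481 RPKM after light and 1600 and 1672 RPKM in the dark in hmox1 with BV, and 1208 and 1174 RPKM after light and 1632 and 1579 RPKM in the dark in hmox1 without BV. In wild type it had 1212 and 1176 RPKM after light and 1464 and 1430 RPKM in the dark with BV, and 1180 and 1156 RPKM after light and 1719 and 1694 RPKM in the dark without BV. Both light libraries were below both dark libraries in each of the 4 pairs of groups. After light with BV, hmox1 stood clear above wild type.

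LHCA8, its neighbour in the inner row, had 1022 and 984.7 RPKM after light and 1083 and 1108 RPKM in the dark in hmox1 with BV, and 857.1 and 825.9 RPKM after light and 1138 and 1128 RPKM in the dark in hmox1 without BV. Its wild-type levels were 870.7 and 861.0 RPKM after light and 1053 and 1046 RPKM in the dark with BV, and 874.9 and 880.9 RPKM after light and 1296 and 1281 RPKM in the dark without BV. The 4 wild-type light libraries were nearly level, whereas in dark wild type both BV libraries were below both libraries without BV.

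LHCA7, also of the inner row, had 1371 and 1292 RPKM after light and 1545 and 1521 RPKM in the dark in hmox1 with BV, and 1080 and 1034 RPKM after light and 1507 and 1473 RPKM in the dark in hmox1 without BV. In wild type it had 1289 and 1266 RPKM after light and 1566 and 1582 RPKM in the dark with BV, and 1107 and 1149 RPKM after light and 1723 and 1727 RPKM in the dark without BV. Its dark libraries were above its light libraries in every pair of groups, and its highest values were those of wild type in the dark without BV.

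In the outer row, LHCA4 had the lowest level per length of the 7 in every group. It had 573.1 and 565.1 RPKM after light and 547.7 and 576.8 RPKM in the dark in hmox1 with BV, and 408.7 and 399.6 RPKM after light and 520.4 and 552.7 RPKM in the dark in hmox1 without BV. Wild type gave 392.5 and 442.6 RPKM after light and 446.3 and 442.9 RPKM in the dark with BV, and 358.7 and 367.3 RPKM after light and 552.0 and 541.5 RPKM in the dark without BV. Light and dark libraries overlapped in hmox1 with BV, and in wild type with BV they nearly touched. With BV, every hmox1 library was above every wild-type library.

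LHCA5, the other outer-row member, had 604.5 and 643.5 RPKM after light and 645.6 and 697.6 RPKM in the dark in hmox1 with BV, and 454.6 and 466.2 RPKM after light and 659.0 and 697.9 RPKM in the dark in hmox1 without BV. In wild type it had 522.2 and 606.7 RPKM after light and 694.9 and 730.3 RPKM in the dark with BV, and 496.0 and 518.0 RPKM after light and 840.2 and 858.5 RPKM in the dark without BV. Wild type in the dark without BV was again the highest group, and the light libraries without BV were the lowest of each strain.

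Of the pair on the other side of the core, LHCA2 had 877.9 and 878.5 RPKM after light and 904.3 and 933.3 RPKM in the dark in hmox1 with BV, and 707.3 and 703.3 RPKM after light and 944.5 and 946.7 RPKM in the dark in hmox1 without BV. The wild-type levels were 798.0 and 857.9 RPKM after light and 999.1 and 979.2 RPKM in the dark with BV, and 766.4 and 786.4 RPKM after light and 1198 and 1174 RPKM in the dark without BV. In the dark, each hmox1 library was below each wild-type library for this gene.

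LHCA9, its partner, had 1132 and 1090 RPKM after light and 1288 and 1291 RPKM in the dark in hmox1 with BV, and 861.7 and 816.2 RPKM after light and 1307 and 1312 RPKM in the dark in hmox1 without BV. Wild-type libraries had 929.7 and 994.5 RPKM after light and 1314 and 1310 RPKM in the dark with BV, and 824.7 and 831.2 RPKM after light and 1545 and 1520 RPKM in the dark without BV. This gene had the widest gap between light and dark libraries of the 7 in all 4 pairs of groups by log2 difference.

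**Figure D1:**
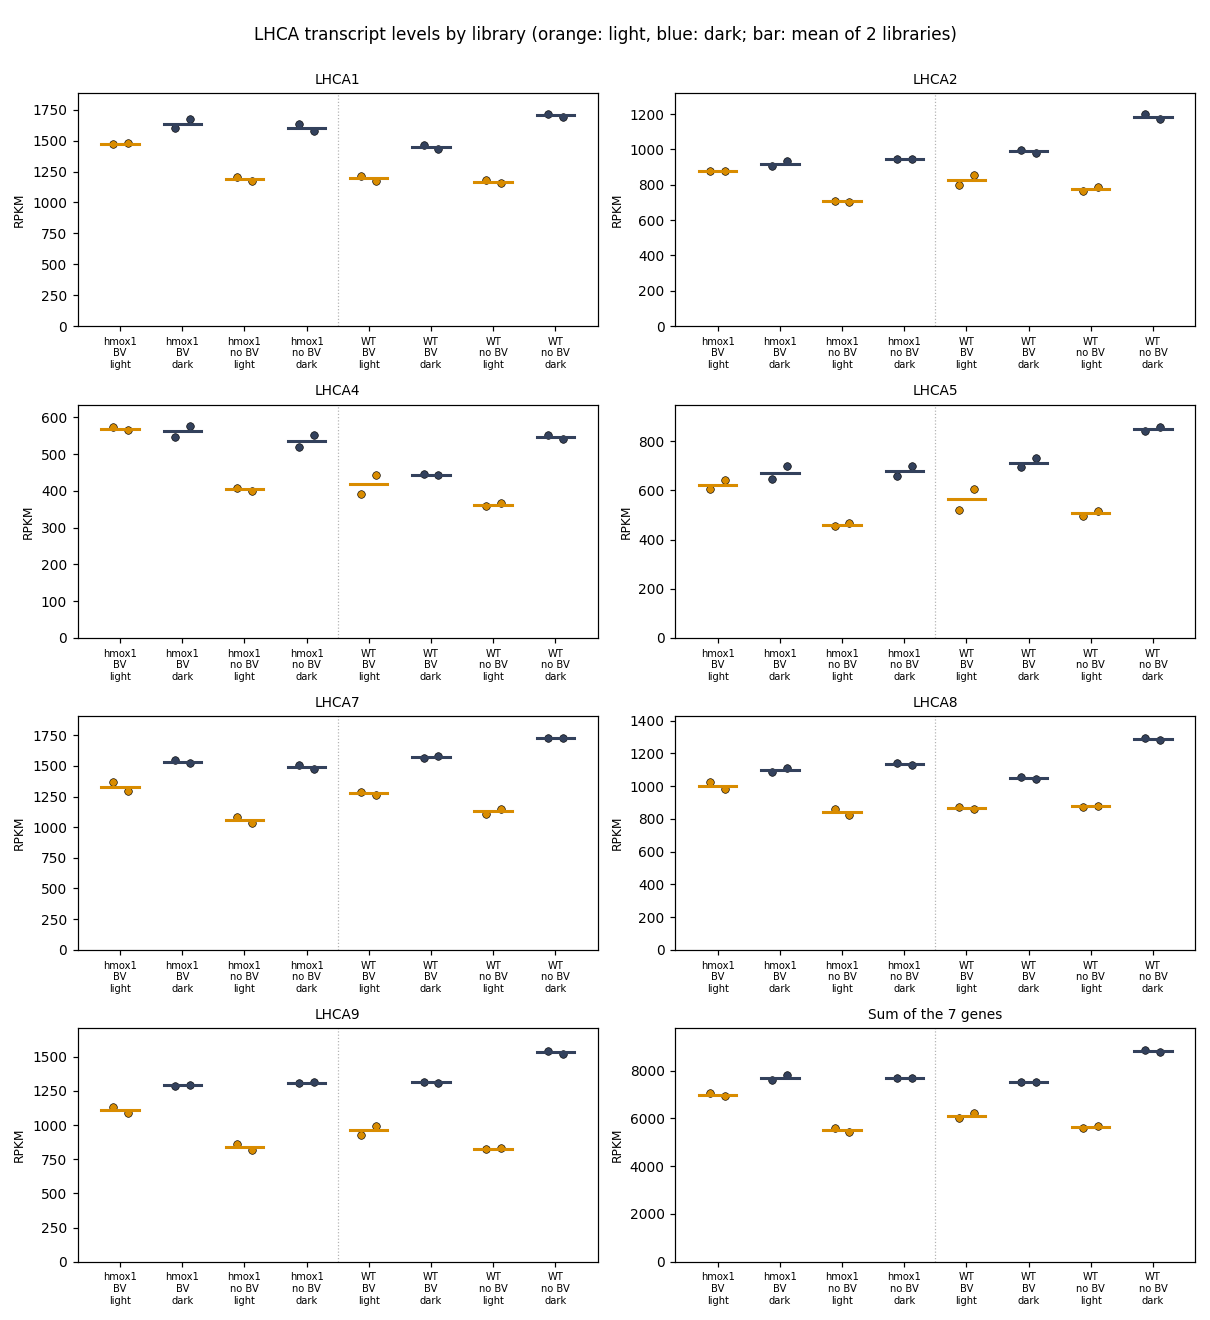
RPKM of the 7 LHCA genes and of their sum (vertical axes) in each of the 16 libraries (points), with the group means as bars; groups run along the horizontal axis by strain, BV and light. The sum averaged 6994, 7706, 5498 and 7699 RPKM in the 4 hmox1 groups, with wild type in the dark without BV highest of all at 8834 RPKM.

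The order of the genes by level hardly changed between groups. In hmox1 it ran LHCA1, LHCA7, LHCA9, LHCA8, LHCA2, LHCA5 and LHCA4 from high to low, except that without BV after light LHCA8 and LHCA9 overlapped in their libraries. In wild type LHCA7 was above LHCA1 in 3 groups and below it after light without BV, the group in which LHCA8 was also above LHCA9. No other neighbours in the order overlapped within a group. The summed level of the 7 genes in hmox1 averaged 6994 ± 82.7 RPKM after light and 7706 ± 131 RPKM in the dark with BV, and 5498 ± 112 RPKM after light and 7699 ± 14.1 RPKM in the dark without BV (SD, n = 2 each). In wild type the sum averaged 6109 ± 134 RPKM after light and 7529 ± 11.3 RPKM in the dark with BV, and 5648 ± 57.3 RPKM after light and 8834 ± 53.7 RPKM in the dark without BV (SD, n = 2 each). Wild type in the dark without BV held the highest sum, and it enters 3 of the comparisons below as their control.

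After light, LHCA transcripts were lower on the deposited scale, and least so where BV was present, but their median was above 0 under TMM and median-ratio scaling. All 7 fell in BV-free wild type, with changes of -46.0% to -31.6% in mean RPKM, and all 7 fell in BV-free hmox1. With BV, 6 of 7 fell in wild type and 4 of 7 in hmox1, where LHCA2, LHCA4 and LHCA5 did not pass the test. The test was limma on log2(RPKM + 1) with p-values adjusted over 13972 genes, and a member was called at an adjusted p under 0.05. Many other genes fell too: 63.1% of all genes tested were lower in BV-free wild type, 55.2% in BV-free hmox1, 55.5% in wild type with BV and 40.9% in hmox1 with BV.

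LHCA9 moved most, with log2 differences of -0.89 ± 0.06 in wild type without BV (SE, limma adjusted p = 2.9e-10), -0.64 ± 0.06 in hmox1 without BV (3.0e-08), -0.45 ± 0.06 in wild type with BV (1.7e-06) and -0.22 ± 0.06 in hmox1 with BV (0.0034). LHCA5 of the outer row followed, with -0.74 ± 0.07 in wild type without BV (limma adjusted p = 6.4e-08) and -0.56 ± 0.07 in hmox1 without BV (3.0e-06). The inner-row genes LHCA1 and LHCA8 fell least in wild type without BV, each by 0.55 ± 0.05 on the log2 scale (limma adjusted p = 7.5e-08 and 5.0e-08). LHCA4 differed by -0.41 ± 0.06 in hmox1 without BV (limma adjusted p = 2.3e-05). With BV present it differed by 0.02 ± 0.06 in hmox1 (limma adjusted p = 0.82) and by -0.09 ± 0.06 in wild type (0.19).

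On the log2(RPKM + 1) scale, the fall of the members was close to that of the median gene. The median of the 7 log2 differences was -0.61 in wild type without BV, where the median of all genes tested was -0.57. In hmox1 without BV it was -0.43 beside -0.35, in wild type with BV -0.28 beside -0.37, and in hmox1 with BV -0.13 beside -0.16. Without the pseudocount, the median gene stood after light at 0.583 of its dark level in wild type without BV, 0.731 in hmox1 without BV, 0.710 in wild type with BV and 0.868 in hmox1 with BV.

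With TMM scaling of the RPKM, a method that takes most genes as unchanged, 5 of 7 members were higher and 0 lower in lit BV-free wild type, with a median of 0.26, beside 42.7% of all genes higher. In wild type with BV 6 were higher and 0 lower (median 0.30, beside 41.3% of all genes higher), and in hmox1 with BV 2 were higher and 0 lower (median 0.10, beside 31.4%). In BV-free hmox1 1 was lower and 0 higher (median 0.06, beside 33.8% of all genes lower). Of all genes called, 24.9% were higher in BV-free wild type on the deposited scale and 52.9% under TMM. The deposited scale gave 27.8%, 29.7% and 33.3% in BV-free hmox1, wild type with BV and hmox1 with BV, and TMM gave 52.9%, 53.2% and 52.9% there. Under quantile normalization the median gene was also near 0, at -0.08, -0.07, -0.03 and -0.03 in BV-free wild type, BV-free hmox1, wild type with BV and hmox1 with BV. There the member medians were below 0, at -0.59, -0.43, -0.20 and -0.06, with 7, 7, 5 and 0 members called lower, and in hmox1 with BV the members ran between -0.13 and 0.03. Among all genes, 41.0%, 38.8%, 38.1% and 32.1% were lower in those comparisons. In hmox1 with BV, the count of 4 came to 2 without hmox1 BV dark replicate 2 or without hmox1 BV light replicate 1, and to 1 without hmox1 BV light replicate 2.

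**Figure D2:**
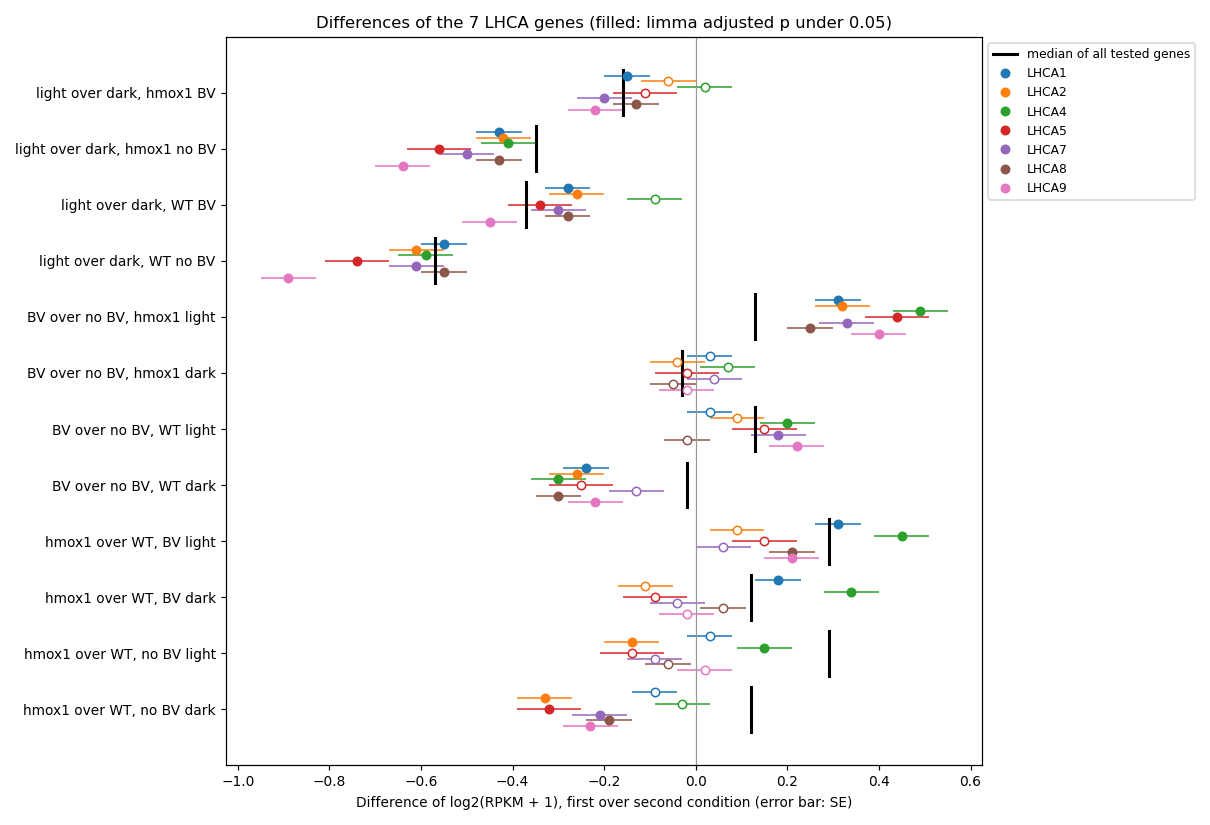
Log2 differences of the 7 LHCA genes (points, filled where limma called them at adjusted p under 0.05) in the 12 comparisons of groups, with the median of all genes tested as a short bar; the horizontal axis is the difference in log2(RPKM + 1) on the deposited scale, with SE as error bars. On this scale, with its pseudocount, the member medians lie near the bar in the comparisons of light with dark. Single members lie further off, such as LHCA9 at -0.32 from it in wild type without BV and LHCA4 at 0.28 in wild type with BV. All members lie below the bar for BV in dark wild type and above it for BV in lit hmox1.

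BV had opposite signs in dark wild type and in lit hmox1. In dark wild type, 5 of 7 members were lower with BV, while 1.72% of all genes tested were lower there, and the median member difference was -0.25 beside -0.02 for all genes. LHCA8 of the inner row had -0.30 ± 0.05 (SE, limma adjusted p = 0.0028) and LHCA4 of the outer row -0.30 ± 0.06 (0.011), while LHCA7 had -0.13 ± 0.06 (0.19). All 7 members had both BV libraries below both libraries without BV, and the share of all genes that did so was not counted. The 4 scalings tried all gave a negative median, with 4 members called lower under TMM, beside 1.75% of all genes, and 2 under quantile normalization, beside 3.05%. Leaving out any 1 of the 4 libraries kept the median member difference at -0.25. These libraries are WT BV dark replicates 1 and 2 and WT noBV dark replicates 1 and 2 (WT, wild type, and noBV, without BV). Fewer members passed the test in those fits, and so did fewer of all genes tested.

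In lit hmox1, all 7 members were higher with BV, against 26.3% of all genes tested, with a median member difference of 0.33 beside 0.13 for all genes. LHCA4 differed most, by 0.49 ± 0.06 (SE, limma adjusted p = 1.8e-05), and LHCA8 least, by 0.25 ± 0.05 (0.0015). Both BV libraries were above both libraries without BV for each of the 7, but how many of all genes separated in this way was not counted. The median stayed positive under all 4 scalings, and 3 members were called higher under TMM, where 12.5% of all genes were. Of all genes called, 35.0% were higher under TMM and 70.2% on the deposited scale.

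In lit wild type, 3 of 7 members were higher with BV beside 32.7% of all genes tested, and the median member difference of 0.15 was close to the 0.13 of all genes. With a pseudocount of 0.01 these medians were 0.15 and 0.24. LHCA9 had 0.22 ± 0.06 (SE, limma adjusted p = 0.0051) and LHCA8 -0.02 ± 0.05 (0.79). Under TMM the direction turned, with 3 members lower and 0 higher, beside 28.9% of all genes lower. The share of higher genes among all called was 43.0% under TMM and 71.5% on the deposited scale. Without WT BV light replicate 1 the count was 5, and without WT noBV light replicate 1 it was 1. In dark hmox1, limma called 0 of 7 members for BV, 0 had an unadjusted p under 0.05, and limma-voom on reads recovered from the RPKM called 0. The differences there ran between -0.05 and 0.07, beside 0.322% of all genes called in either direction.

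The effect of BV on the light difference was tested directly. On the deposited scale it was positive for all 7 members in wild type, with a median of 0.35 on the log2 scale, and for all 7 in hmox1, with a median of 0.36. Among all genes tested, 22.3% had a positive call in wild type and 15.9% in hmox1, and the median gene stood at 0.15 in both strains. Under TMM 0 of 7 were called in wild type (median 0.06), where 33.4% of all genes were called in either direction, and 0 of 7 in hmox1 (median 0.10), beside 22.8%. Under quantile normalization 6 of 7 were positive in wild type (median 0.38) and 5 of 7 in hmox1 (median 0.36), with the median gene at 0.02 and 0.03. The share of all genes called positive under quantile normalization is not given here. These calls therefore depended on the scaling. Of all genes called, 70.8% were positive in wild type and 69.9% in hmox1 on the deposited scale. The shares were 41.1% and 31.2% under TMM, and 54.0% and 48.5% under quantile normalization. Within a strain, the BV and the light comparisons share libraries.

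**Figure D3:**
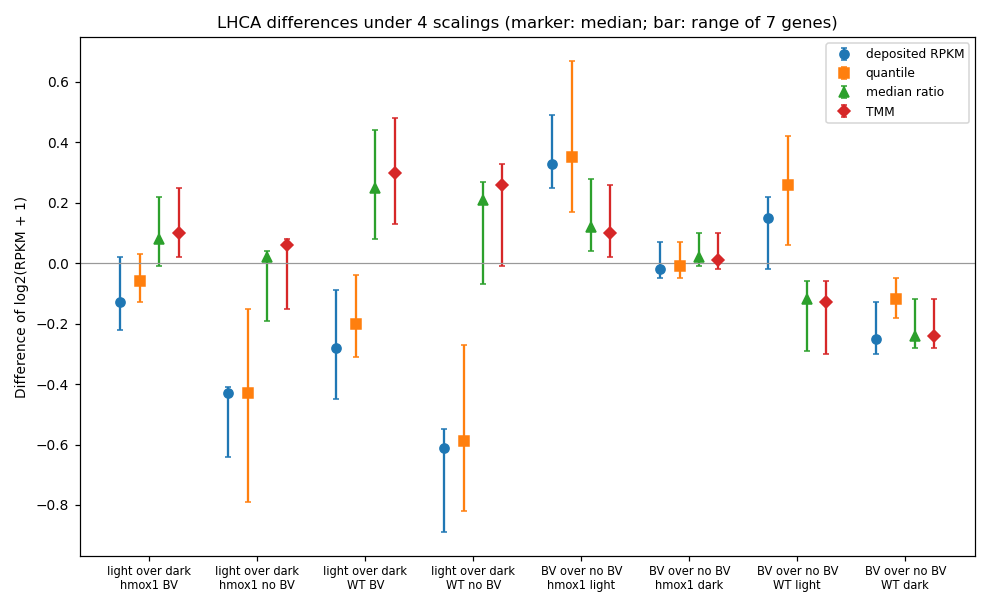
Median log2 difference of the 7 LHCA genes (points, with the range of the members as lines) in the light and BV comparisons under the deposited RPKM scale, quantile normalization, TMM and median-ratio scaling. The light medians are below 0 on the deposited scale and under quantile normalization and above 0 under TMM and median-ratio scaling, while BV in dark wild type stays below 0 and BV in lit hmox1 above 0 under all 4.

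Between the strains, the median gene had a higher RPKM in hmox1 in all 4 comparisons on the deposited scale, and the median LHCA difference was below that of all genes in each. In the dark without BV, 5 of 7 were lower in hmox1, against 8.49% of all genes tested, and the median member difference was -0.21 beside 0.12 for all genes. LHCA2 had -0.33 ± 0.06 (SE, limma adjusted p = 2.4e-04) and LHCA5 -0.32 ± 0.07 (0.0024), while LHCA4 had -0.03 ± 0.06 (0.77). The median was negative under all 4 scalings, and all 7 were called lower under TMM, where 13.7% of all genes were. Among all genes called, 52.0% were higher under TMM and 75.8% on the deposited scale. These libraries of dark wild type without BV are also the control of the BV and light comparisons of wild type.

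After light without BV, 1 member was higher and 1 lower in hmox1, beside 53.5% of all genes higher and 7.72% lower. LHCA4 had 0.15 ± 0.06 (SE, limma adjusted p = 0.046) and LHCA2 -0.14 ± 0.06 (0.041), and the median member difference was -0.06 beside 0.29 for all genes. Leaving out any 1 of the 4 libraries, WT noBV light replicate 1 or 2 or hmox1 noBV light replicate 1 or 2, ended both calls. Under TMM all 7 were lower, with a median of -0.60, where 33.7% of all genes were lower. Among all genes called, 40.7% were higher under TMM and 87.4% on the deposited scale.

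With BV in the dark, LHCA4 at 0.34 ± 0.06 (SE, limma adjusted p = 4.8e-04) and LHCA1 at 0.18 ± 0.05 (0.015) were higher in hmox1, beside 30.3% of all genes tested, and the other 5 members did not pass the test. The median member difference was -0.02 beside 0.12 for all genes. The count was 1 without WT BV dark replicate 1, WT BV dark replicate 2 or hmox1 BV dark replicate 2. With BV after light, 4 members were higher, beside 52.2% of all genes, and the median member difference was 0.21 beside 0.29 for all genes. LHCA4 had 0.45 ± 0.06 (limma adjusted p = 2.6e-05), LHCA1 0.31 ± 0.05 (1.8e-04) and LHCA7 0.06 ± 0.06 (0.37). Under TMM 5 of 7 were lower and 0 higher after light with BV, beside 33.2% of all genes lower. In the dark with BV, TMM left LHCA4 as the 1 member higher, at 0.20 (limma adjusted p = 0.013), beside 20.0% of all genes, and 2 members lower, beside 18.1%. Among the genes called after light, 39.5% were higher under TMM and 85.0% on the deposited scale, and in the dark 52.5% and 71.1%.

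The light difference itself was compared between the strains. LHCA9 was the 1 member of 7 that passed, with a smaller fall in hmox1 both without BV, beside 23.7% of all genes tested, and with BV, beside 27.9%. On the log2(RPKM + 1) scale, the median member difference between the light effects was 0.18 without BV and 0.15 with BV, close to the 0.19 and 0.20 of all genes. Without the pseudocount, the median log2 light difference of all genes without BV was -0.78 in wild type and -0.45 in hmox1. With BV it was -0.49 and -0.20, so the closeness held for the scale with the pseudocount. LHCA9 turned negative under TMM. Of all genes called, 76.5% and 71.9% were positive on the deposited scale without and with BV, and 36.4% and 37.4% under TMM. Leaving out any 1 of 7 of the 8 libraries without BV ended the call there, the exception being hmox1 noBV light replicate 2. With BV, leaving out WT BV light replicate 1, hmox1 BV light replicate 1 or any of the 4 dark libraries ended it, and 4 members passed without WT BV light replicate 2.

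The response to BV differed between the strains by a positive median of 0.24 in the dark and 0.27 after light (hmox1 minus wild type, log2), beside -0.01 and -0.00 for all genes tested. In the dark limma called 0 of 7, although all 7 had an unadjusted p under 0.05, and limma-voom called 0; 0.938% of all genes were called in either direction. After light 2 of 7 were called, beside 2.45% of all genes called positive. The medians were positive under all 4 scalings, and of all genes called after light 42.5% were positive under TMM and 28.6% on the deposited scale. Without WT BV light replicate 2, 6 members were called after light, and without either lit BV-free wild-type library or any of the 4 lit hmox1 libraries, 0 were.

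The share of each gene in the summed RPKM of the 7 does not depend on a scale factor per library, and it was compared after the dependence on scaling had been seen. Libraries were relabelled within the 4 combinations of the other 2 factors in an exact two-sided permutation test over 8 against 8 libraries, which can give 0.0015 at the smallest. Of 21 tests, 11 passed after Benjamini-Hochberg adjustment. Shares add up to 100%, so the tests are not independent.

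The share of LHCA9 was 15.4% ± 0.554 after light and 17.1% ± 0.315 in the dark (SD, n = 8 each), a difference of -1.74 percentage points (exact permutation test, adjusted p = 0.0046). No light library reached a dark library, as the light shares ended at 16.1% and the dark shares began at 16.5%. Its partner LHCA2 moved the other way, by 0.48 percentage points after light relative to dark (exact permutation test, adjusted p = 0.0046). LHCA4 gained 0.60 points (0.0046) and LHCA8 0.48 points (0.027) on the same test. For LHCA8 the adjusted p was 0.050 without hmox1 BV light replicate 1 (0.44 points, exact permutation test).

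With BV the share of LHCA8 was 14.2% ± 0.238, and without it 15.0% ± 0.429 (SD, n = 8 each), a difference of -0.87 percentage points (exact permutation test, adjusted p = 0.0046). The groups did not overlap, with shares of at most 14.5% with BV and at least 14.6% without. LHCA2 differed by -0.28 percentage points with BV (exact permutation test, adjusted p = 0.022), and by -0.26 points (0.059) without WT noBV light replicate 2.

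In hmox1 the share of LHCA2 was 12.4% ± 0.374, against 13.5% ± 0.292 in wild type (SD, n = 8 each), a difference of -1.07 percentage points (exact permutation test, adjusted p = 0.0046). LHCA4 held 7.44% ± 0.477 in hmox1 and 6.34% ± 0.398 in wild type, which is 1.10 percentage points more (exact permutation test, adjusted p = 0.0046). LHCA1 gained 1.52 points in hmox1 (0.0046), while LHCA7 differed by -0.95 points (0.0081) and LHCA5 by -0.61 points (0.023). The LHCA5 value did not pass without hmox1 BV light replicate 1 (-0.53 points, adjusted p = 0.078, exact permutation test) or without WT BV light replicate 2 (-0.48 points, 0.065). LHCA8, with a difference of 0.08 points (0.45), and LHCA9, with -0.07 points (0.68), did not pass the test between strains.

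**Figure D4:**
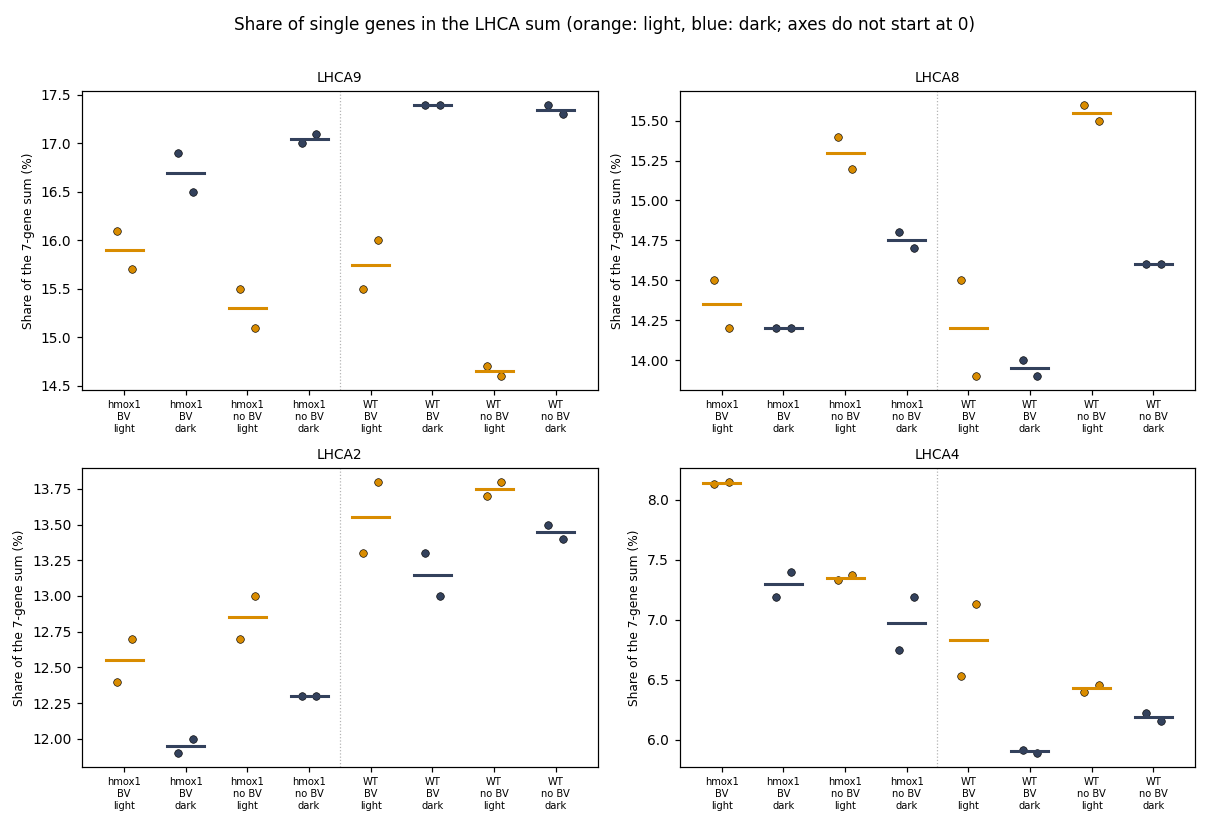
Share of LHCA9, LHCA8, LHCA2 and LHCA4 in the summed RPKM of the 7 LHCA genes (vertical axes, percent, not starting at 0) in each of the 16 libraries (points), by group. The LHCA9 share is 14.6% to 16.1% in the light libraries and 16.5% to 17.4% in the dark libraries, and the LHCA2 share is at most 13.0% in hmox1.

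A list of nuclear genes for subunits of the photosystem I core, the complex that LHCI feeds, had 8 of 9 identifiers in the table. It was written from general nomenclature, and no table used here annotates these identifiers. After light, 8 of 8 were lower in BV-free wild type (median -0.58), in wild type with BV (-0.30) and in BV-free hmox1 (-0.43), and 5 of 8 in hmox1 with BV (-0.23) on the deposited scale, while under TMM the medians were 0.30, 0.28, 0.06 and 0.00. With BV, 4 of 8 were lower in dark wild type (-0.17), and 2 of 8 were under TMM. In lit hmox1, 7 of 8 were higher with BV (0.27), and 0 of 8 under TMM (0.04). The background shares given above for all genes hold for these comparisons too.

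Between the strains, limma called 0 of 8 core-list genes in the dark without BV, 0 had an unadjusted p under 0.05, and limma-voom on recovered reads called 0. Of the 13972 genes tested, limma called 3707 higher and 1186 lower in hmox1 in that comparison on the deposited scale. The median difference of the core-list genes was -0.00, beside -0.21 for the LHCA genes, and under TMM it was -0.15, beside -0.36. In the other strain comparisons, core-list genes were called higher in hmox1 on the deposited scale, 5 of 8 after light without BV (median 0.16), 5 of 8 in the dark with BV (0.19) and 7 of 8 after light with BV (0.29). Under TMM the medians were -0.38, 0.06 and -0.20 there, with 0 called higher and 8, 0 and 2 of 8 called lower. The summed RPKM of the LHCA genes divided by that of the core list was 0.658 to 0.705 in the 8 hmox1 libraries and 0.718 to 0.775 in the 8 wild-type libraries. The ranges did not overlap, whatever the light and BV, and this ratio does not depend on a scale factor per library. The difference in ratio is given as a description and was not tested.

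Over the 16 libraries, Pearson's r of each member against the mean of the other members was 0.985 for LHCA9, 0.967 for LHCA8, 0.953 for LHCA5, 0.950 for LHCA7, 0.946 for LHCA1, 0.930 for LHCA2 and 0.780 for LHCA4. The r that genes in general reach against such a mean is not given here. The 3 genes outside the family with the profile most like the mean of the members were Cre18.g749750 (r = 0.976), Cre03.g156900 (r = 0.974) and Cre03.g165100 (r = 0.969). All these values share the same libraries and the same scaling, and they are given as descriptions. Cre18.g749750 averaged 753.7 RPKM, Cre03.g156900 497.5 RPKM and Cre03.g165100 832.6 RPKM over all libraries. The tables used here give no name for these 3 genes.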

How the data were processed

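RNA-seq of 16 libraries (8 groups of 2) was used. The deposited table gives RPKM on the authors' scale; its header names no unit, which was inferred from the values. Bowtie was used per the submitters' processing notes. The sources used here give no version, genome build, annotation, read counter or use of strand, so no coordinates are printed. Whole reads were recovered from the RPKM steps for 16851 of 16852 genes above 0, within 0.1 reads.

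limma 3.58.1 (R 4.3.3), with intensity trend and robust variances, was fitted to log2(RPKM + 1) with 1 mean per group and 8 residual degrees of freedom. The 13972 genes that reached 1 RPKM in 2 or more libraries were tested. Benjamini-Hochberg adjustment ran within each of 12 comparisons of groups and 6 of effects, at a threshold of 0.05. Fold changes on this scale understate changes of low genes. The script was tested on simulated data.

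Named genes are all members found, the photosystem I list and the 3 other genes most correlated with the mean member. Members and lists were chosen with earlier results of these data known. A list of LHC relatives by protein sequence was not used here. Alternatives covered pseudocounts of 0.1 and 0.01, no filter, quantile, TMM and median-ratio scaling, no trend, only the groups compared, a replicate block, limma-voom on recovered reads, and each library left out. Of the gene identifiers, 12666 matched a RefSeq locus tag of the v5.5 assembly table.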

Additional observations from a re-analysis of the deposited data

Results flagged for a closer look

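Groups of 2 libraries are too small for a check of single outlying samples. The values below are differences between 2 effects on the log2(RPKM + 1) scale, each with its SE and limma adjusted p. They are listed because the test of the difference itself passed, as it did for other genes. For the effect of BV on the light difference, 22.3% of all genes tested were called positive in wild type and 15.9% in hmox1. The effect of strain on the light difference was called positive for 23.7% without BV and 27.9% with BV. For the effect of strain on the BV difference after light the share was 2.45%.

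The light difference was more positive with BV than without it for every LHCA gene in wild type. It differed by 0.27 ± 0.08 for LHCA1 (limma adjusted p = 0.013), 0.31 ± 0.08 for LHCA7 (0.0061) and 0.28 ± 0.07 for LHCA8 (0.010) of the inner row. In the outer row it differed by 0.50 ± 0.09 for LHCA4 (5.2e-04) and 0.40 ± 0.10 for LHCA5 (0.0065). For the pair on the other side of the core it differed by 0.35 ± 0.08 for LHCA2 (0.0026) and 0.44 ± 0.08 for LHCA9 (5.1e-04).

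The same was seen in hmox1, with limma adjusted p in parentheses. LHCA1 differed by 0.28 ± 0.08 (0.014), LHCA7 by 0.29 ± 0.08 (0.014) and LHCA8 by 0.30 ± 0.07 (0.0087). LHCA4 differed by 0.43 ± 0.09 (0.0031) and LHCA5 by 0.45 ± 0.10 (0.0049). LHCA2 differed by 0.36 ± 0.08 (0.0039) and LHCA9 by 0.43 ± 0.08 (0.0011). Under TMM, limma called 0 of 7 members in either strain, beside 33.4% of all genes called in wild type and 22.8% in hmox1. Under quantile normalization 6 members were called in wild type and 5 in hmox1, where the median gene stood at 0.02 and 0.03.

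The light difference of LHCA9 was more positive in hmox1 than in wild type, by 0.25 ± 0.08 without BV (limma adjusted p = 0.029) and 0.23 ± 0.08 with BV (0.030), and both turned negative under TMM. The difference made by BV in light was more positive in hmox1 than in wild type by 0.28 ± 0.08 for LHCA1 and 0.27 ± 0.07 for LHCA8 (limma adjusted p = 0.032 each).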

How the results depend on the processing

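Scaling turned the direction of some member values, and the cause of each change below was not tested. Values are log2 differences under TMM and then median-ratio scaling. After light in wild type without BV, LHCA1 stood at 0.33 and 0.27, LHCA5 at 0.13 and 0.07, and LHCA8 at 0.32 and 0.26. In wild type with BV, LHCA4 stood at 0.48 and 0.44 and LHCA9 at 0.13 and 0.08. In hmox1 without BV, LHCA4 stood at 0.08 and 0.04. In hmox1 with BV, LHCA9 stood at 0.02 under TMM. BV in lit wild type gave -0.06 under both for LHCA9. For hmox1 against wild type, LHCA4 after light without BV stood at -0.38 and -0.37. After light with BV, LHCA1 stood at -0.18 and -0.15, LHCA4 at -0.04 and -0.01, and LHCA7 at -0.43 and -0.40. The strain difference in the light effect of LHCA9 was -0.14 and -0.12 without BV and -0.11 and -0.09 with BV. The BV difference in the light effect in wild type was -0.03 and -0.02 for LHCA1 and -0.02 and -0.01 for LHCA8. Quantile normalization turned values close to 0, namely LHCA4 for light in hmox1 with BV (-0.02), LHCA8 for BV in lit wild type (0.06) and LHCA7 for strain after light with BV (-0.04). Without hmox1 BV dark replicate 1, LHCA4 stood at -0.02 for light in hmox1 with BV, and for strain in the dark without BV it ran between -0.07 and 0.02, positive without hmox1 noBV dark replicate 1.

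Counts of members called in either direction moved by over 1.5 times as follows. A count that kept its size could still change direction. Under TMM the calls had the opposite direction for light in wild type with and without BV and in hmox1 with BV. The same held for BV in lit wild type and for strain after light with BV. For the effect of strain on the light difference with BV, TMM called 1 member negative, where the deposited scale called 1 positive. For light in hmox1 without BV, 1 was called under TMM and 1 under median-ratio scaling. For light in hmox1 with BV, 0 were called under quantile normalization, 2 under TMM, 1 under median-ratio scaling and 2 without the trend. For BV in dark wild type, 2 were called under quantile normalization and 2 without the trend. For BV in lit wild type, 5 were called under quantile normalization and 0 with only the groups compared. For BV in lit hmox1, 3 were called under TMM and 3 under median-ratio scaling. For strain after light without BV, 7 were called under TMM and median-ratio scaling, 1 with only the groups compared, and 0 under quantile normalization or without the trend. For strain with BV, 1 was called in the dark without the trend, and after light 2 under quantile normalization and 2 with only the groups compared. For the effect of BV on the light difference, 0 were called in either strain under TMM or median-ratio scaling. For the effect of strain on it, 0 were called without BV under TMM, median-ratio scaling and without the trend, and with BV 0 under median-ratio scaling, without the trend and with only the groups compared. For the effect of strain on the BV difference in the dark, 1 was called under TMM and 1 under median-ratio scaling. After light, 1 was called under quantile normalization, 4 under median-ratio scaling, and 0 without the trend or with only the groups compared. The other pseudocounts and the lack of a filter moved no count by over 1.5 times, nor did limma-voom on recovered reads.

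Replicate numbers were not taken to pair the libraries, because over 28 pairs of groups same-numbered deviations correlated between -0.15 and 0.27, with 10 above 0.1 and the rest not. With a replicate block, 3 members were called for strain by light with BV, 1 for strain by BV in the dark and 4 for strain by BV after light; other counts stayed within 1.5 times.

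Leaving out 1 library at a time, with the lone library of a group assumed to vary like the others, left 7 to 7 called for light without BV in wild type and in hmox1, 6 to 7 for light in wild type with BV and 1 to 3 for light in hmox1 with BV. For BV the counts were 1 to 1 in dark wild type, 1 to 5 in lit wild type, 0 to 0 in dark hmox1 and 7 to 7 in lit hmox1. For strain they were 4 to 5 in the dark and 0 to 0 after light without BV, and 1 to 2 in the dark and 3 to 6 after light with BV. For the effect of BV on light they were 6 to 7 in wild type and 5 to 7 in hmox1. For the effect of strain on light they were 0 to 1 without BV and 0 to 4 with BV, the 4 without WT BV light replicate 2. For the effect of strain on BV they were 0 to 0 in the dark and 0 to 6 after light. Of the shares recomputed without 1 library, 4 lost their call, 7 gained one and 0 changed sign. Among the values of named members over all alternatives, 563 kept their direction and call, 109 lost the call, 8 gained one and 36 changed sign. Each member had 5083 or more reads in each library, and each group had 2 libraries; the effect of depth was not tested.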
